A study of Caenorhabditis elegans with 2 samples.

Results

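This report concerns the lysozymes, the saposin-like peptides and further secreted or intestinal immune effectors of Caenorhabditis elegans on 2 Affymetrix arrays. The genes were chosen by name: the platform's annotation had to give a probe set to exactly 1 gene, with a symbol starting lys-, ilys-, spp-, irg-, dod-, abf-, fipr- or thn-. The rule found 75 probe sets for 68 genes, out of 22548 probe sets that are not controls and 17118 genes that have at least 1 such set to themselves. It holds 10 lys, 6 ilys, 18 spp, 8 irg, 9 dod, 5 abf, 8 fipr and 4 thn genes.

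Total RNA came from nematodes on a diet of Escherichia coli HT115, a strain that serves to deliver double-stranded RNA by feeding and so to start RNA interference (RNAi). In 1 sample the bacteria carried double-stranded RNA for the gene imp-2, a member of the family of signal peptide peptidases. In the other the RNA was for green fluorescent protein (GFP), which the wild-type animal lacks and which serves as the control. Each group holds 1 array, so nothing below has a replicate check and no p-value is given. Strain, sex, age and stage are not stated in these sources, and the tissue label names a mammalian brain region next to the whole worm.

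The intestine of Caenorhabditis elegans is at the same time its gut for digesting bacteria and its main surface against swallowed pathogens. Lysozymes cut the bacterial cell wall, saposin-like peptides (caenopores) open pores in bacterial membranes, and defensin-like and other small peptides are secreted in the gut, the pharynx or the epidermis. The p38 kinase PMK-1, the insulin-regulated transcription factor DAF-16 and the TGF-beta ligand DBL-1 are the best known regulators of these genes. The bacteria of the RNAi diet are food and immune stimulus at once.

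A level is the intensity of a probe set on a linear scale in arbitrary units, and levels of different probe sets cannot be set against each other. Readings under an array's median (35.3 on the imp-2-labelled array and 30.1 on the GFP-labelled array) were raised to that median, here called the floor. A fold against such a reading is a lower bound, written as "at least". A gene is called expressed here if the average of its log2 readings exceeded the median of that average over all probe sets. The log2 ratio is the imp-2-labelled over the GFP-labelled array, centred on the expressed genes. The only spread these arrays give is that between probe sets of 1 gene, 0.37 on the log2 scale over 2489 pairs. It is the root mean square difference in log2 ratio of such pairs, divided by the square root of 2, so it applies to 1 set. It says nothing about the variation between cultures.

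The check of the targeted gene did not settle the labels. The probe set of imp-2 with the higher mean had a log2 ratio of −0.41 and its other one 2.29. Only the name of that other set ends in a code for probes that can match more than 1 transcript. Both arrays are therefore named by their labels, and every direction is one between labels. Ratios of 3′ to 5′ readings of 4 RNA integrity controls ran from 1.12 to 16.7 on the imp-2-labelled array and from 1.37 to 12.1 on the GFP-labelled array. They were lower on the former for actin and Gapdh and higher for ubiquitin and catalase. Whether RNA quality had a part in the results below was not tested.

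Of the 68 effector genes, 37 counted as expressed and 31 did not. Of those 37, 13 were at least 2-fold higher on the imp-2-labelled array, 5 differed as much in the other direction and 19 lay within 2-fold. Over all 8553 expressed genes, 9.72% were past 2-fold higher and 2.27% past 2-fold lower, against 35.1% and 13.5% of the expressed effector genes. Calls were therefore more frequent here than over all genes in both directions, without a test of that difference. The median log2 ratio of the 37 was 0.64, beside 0.00 over all expressed genes, and 26 of the 37 ratios were above 0. In whole animals, fewer cells of a type and less RNA per cell cannot be told apart.

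A gene far above the floor on 1 array can count as expressed through that array alone, and 4 of the 37 did so: irg-2, spp-27 and fipr-24, which were under the floor on the GFP-labelled array, and abf-1, which was under it on the other. Among the 33 above the floor on both arrays, 10 were higher, 4 were lower and the median was 0.55. Over all 7960 expressed genes measured in that way, 8.69% were higher, 2.04% were lower and the median was −0.01. The log2 ratios of 21 of the 37 (56.8%) lay further from 0 than 2 probe set spreads, and those of 10 (27%) lay within 1 spread. Over all expressed genes these shares were 20.4% and 54.4%.

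**Figure D1:**
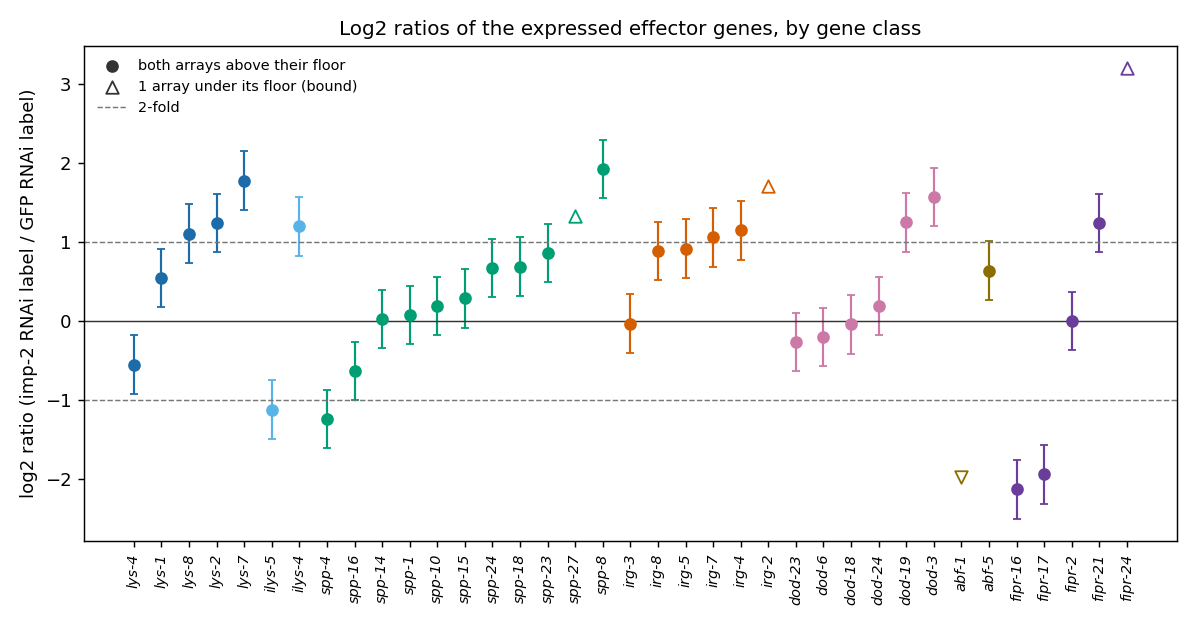
Log2 ratio (imp-2-labelled over GFP-labelled array) of the 37 expressed effector genes, grouped by gene class and sorted within it. Filled points were above the floor on both arrays and carry bars of 1 probe set spread (0.37); open triangles are bounds with 1 array under its floor, and dashed lines mark 2-fold. The ratios run from −2.13 for fipr-16 to at least 3.20 for fipr-24.

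The lys genes encode lysozymes of the type shared with amoebae, and 5 of the 10 were expressed. The largest difference was that of lys-7, a lysozyme gene known as a DAF-16 target that acts in defence against bacteria. It read 463 on the imp-2-labelled array and 134 on the GFP-labelled array, 3.44-fold higher (log2 ratio 1.78, or 4.78 probe set spreads). Next came lys-2, with 422 against 177, a 2.36-fold difference. For lys-8, a gene that depends on DBL-1 signalling, the readings were 508 and 233, 2.16-fold higher. These were the 3 lysozyme genes of this class past 2-fold, all of them toward the imp-2 label.

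The other expressed lys genes lay within 2-fold and on both sides of 0. The lysozyme gene lys-1, an intestinal gene known to respond to bacterial infection, read 773 and 523, a log2 ratio of 0.55 or 1.49 spreads. For lys-4 the order was the other way, with 1582 on the imp-2-labelled array and 2298 on the GFP-labelled array (log2 ratio −0.55). The median log2 ratio of the class was 1.11 over 5 genes. The remaining genes, lys-3, lys-5, lys-6, lys-9 and lys-10, were under the floor on both arrays. Their readings lay between 0.554 and 26.1 over both arrays.

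Invertebrate-type lysozymes, encoded by the ilys genes, form a separate family of cell wall enzymes, and its 2 expressed genes went opposite ways. The gene ilys-5 was measured by 3 probe sets, which read 1952, 1973 and 1877 on the imp-2-labelled array and 4221, 4170 and 4136 on the GFP-labelled array. Its log2 ratios of −1.12, −1.09 and −1.15 differed by far less than the probe set spread, and all 3 sets were past 2-fold lower. The names of all 3 end in a code for probes that can match more than 1 transcript, so they may read the same sequences and are not 3 independent readings. For ilys-4 the readings were 203 and 87.6, which is 2.30-fold higher. The genes ilys-1, ilys-2, ilys-3 and ilys-6 were under both floors. Among them is ilys-3, known for an intestinal and pharyngeal lysozyme, which read 29.1 on the imp-2-labelled array and 2.25 on the other, without a usable ratio.

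**Figure D2:**
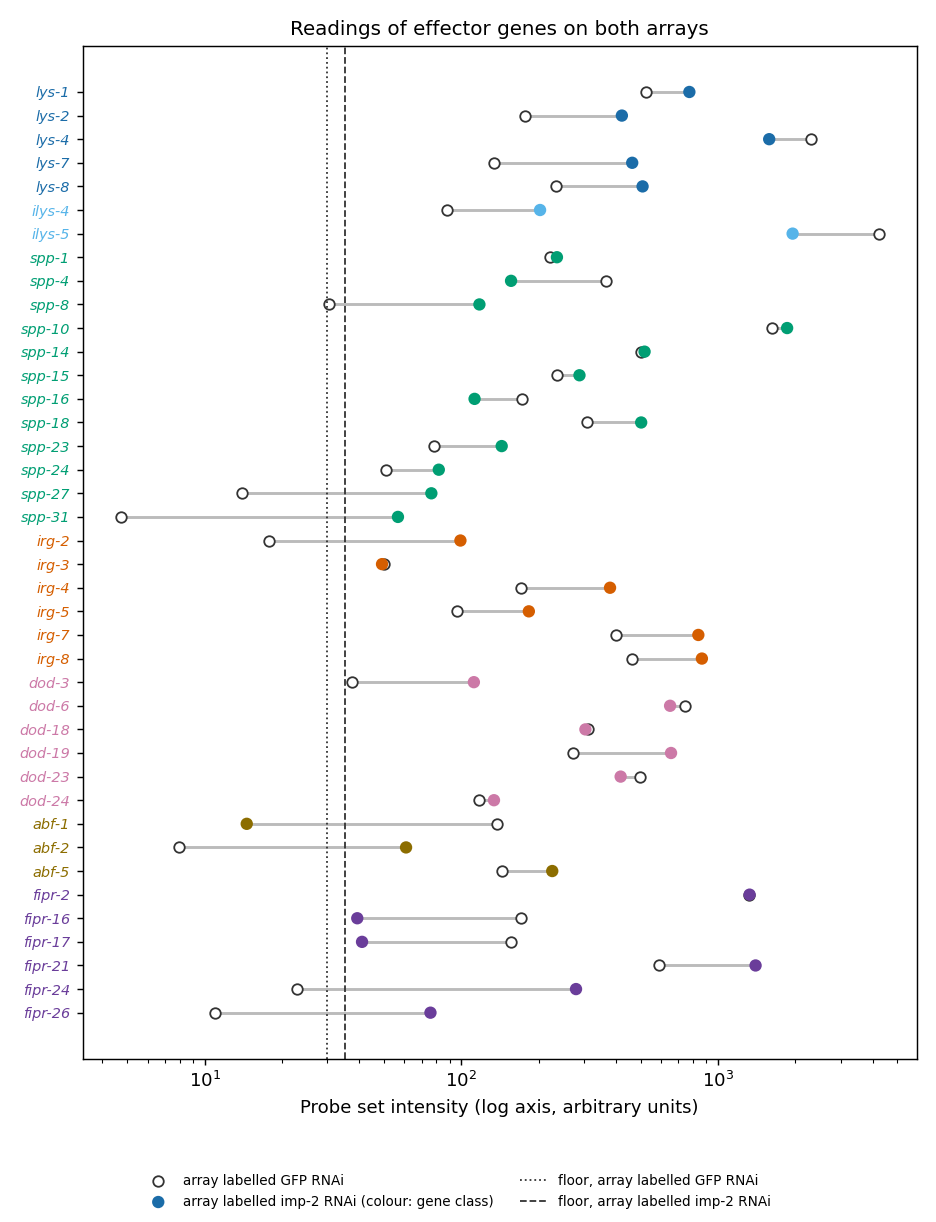
Readings of the 40 effector genes above the floor on at least 1 array, on a log axis of probe set intensity in arbitrary units; filled points are the imp-2-labelled array (coloured by gene class), open points the GFP-labelled array, and vertical lines the floors. For each gene the length of the grey line shows the difference; ilys-5 and lys-4 read higher on the GFP-labelled array, while lys-1, lys-2, lys-7 and lys-8 read higher on the imp-2-labelled array.

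Of the 18 saposin-like spp genes 11 were expressed, of which 8 lay within 2-fold and 3 did not, with a class median of 0.29. The prosaposin-like gene spp-10 read 1858 and 1617 (log2 ratio 0.19), with 0.09 on its second probe set. Another of its sets read 285 against 114 and gave 1.30, which differs from the first by 1.11 on the log2 scale. The 3 sets of this gene therefore do not give 1 ratio.

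The caenopore gene spp-1, known for activity against bacteria and as a DAF-16 target, read 236 and 222 with a log2 ratio of 0.08. Its other probe set was under the floor on both arrays. For spp-14 the ratio was 0.03 and for spp-15 it was 0.29, both within 1 spread. The genes spp-18, spp-23 and spp-24 lay between 1.59-fold and 1.82-fold higher, and spp-16 was 1.54-fold lower. These 4 lay between 1.68 and 2.31 spreads from 0 without reaching 2-fold.

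Saposin-like genes past 2-fold were spp-8 and spp-27, both higher, and spp-4, which was lower. The GFP-labelled array read 30.6 for spp-8, just above its floor of 30.1, and the imp-2-labelled array 118, a 3.82-fold difference. A second probe set of spp-8 read 73.6 against 26.8, the latter under the floor, and gave at least 2.42-fold. For spp-27 the readings were 76.4 and 14.0, at least 2.52-fold higher. The gene spp-4 read 156 on the imp-2-labelled array and 366 on the GFP-labelled array, 2.36-fold lower, and ranked 64 from the lowest among the 7960 genes above both floors. With the floor at the 75th percentile its log2 ratio of −1.24 became −0.94, within 2-fold. The genes spp-6, spp-7, spp-11, spp-12, spp-13 and spp-19 were under both floors, and spp-31 was dim, with 56.6 against 4.71.

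The irg class, named for genes that respond to infection, leaned to 1 side. Of 8 genes 6 were expressed, 3 of these were at least 2-fold higher, none was at least 2-fold lower, and the median log2 ratio was 0.99. The gene irg-4, a PMK-1-dependent gene of the CUB-like family, read 380 and 170, 2.21-fold higher. Its relative in regulation irg-5 read 183 and 96.0, 1.89-fold higher. For irg-7, known to act in the intestinal response to pathogens, the readings were 838 and 399, which is 2.08-fold higher.

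The remaining irg genes varied. The imp-2-labelled array read 865 for irg-8 and the GFP-labelled array 463, a log2 ratio of 0.89. For irg-2 the readings were 99.2 and 17.8, at least 3.27-fold higher. The gene irg-3 stood apart from the rest of the class with 49.1 and 49.9 and a log2 ratio of −0.03. Under both floors were irg-6 and irg-1, the latter known as the reporter gene of the ZIP-2 pathway that senses blocked translation, with 17.1 and 18.9. Thus 3 of the 6 expressed irg genes were at least 2-fold higher, beside 9.72% of all expressed genes. Short of 2-fold were irg-5 and irg-8, at 2.47 and 2.39 spreads from 0.

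The dod genes were named for responding to DAF-16, some upward and some downward, and they split into 2 that were past 2-fold higher and 4 close to 0. Of 9 on the array, 6 were expressed and the median was 0.07. The gene dod-3 read 112 on the imp-2-labelled array and 37.4 on the GFP-labelled array, 2.97-fold higher. For dod-19 the readings were 656 and 273, 2.39-fold higher, while its second probe set read 111 and 65.0, which is 1.69-fold higher and short of 2-fold. The others, dod-6, dod-18, dod-23 and dod-24, had log2 ratios between −0.26 and 0.19, all within 1 spread. One of these, dod-24, is known for its response to infection through PMK-1; it read 134 and 117. Under both floors were dod-17, dod-20 and dod-22.

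Defensin-like abf genes were few above the floor. The gene abf-1 read 14.6 on the imp-2-labelled array, under its floor, and 137 on the GFP-labelled array, which is at least 3.92-fold lower. Its neighbour abf-2, whose peptide is an antibacterial factor of the pharynx, gave the reverse picture, with 60.9 against 7.97. That is at least 2.01-fold higher, although abf-2 was too dim to count as expressed. For abf-5 the readings were 226 and 144, a log2 ratio of 0.64. The genes abf-3 and abf-4 were under both floors.

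The fipr genes, which encode small secreted peptides related to those induced by fungal infection, held the widest range. The imp-2-labelled array read 280 for fipr-24 and the other array 22.8, at least 9.21-fold higher. For fipr-21 the readings were 1400 and 590, 2.35-fold higher. The genes fipr-16 and fipr-17 went the other way: fipr-16 read 39.3 against 171, 4.38-fold lower, and fipr-17 read 41.0 against 157, 3.85-fold lower. Among the 7960 genes above both floors they ranked 10 and 16 from the lowest. Their readings on the imp-2-labelled array were just above its floor of 35.3. With the floor and the expression limit at the 75th percentile, neither fipr-16 nor fipr-17 counted as expressed.

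Between these extremes lay fipr-2, with 1327 and 1315 and a log2 ratio of 0.00. The gene fipr-26 was too dim to count as expressed but read 75.8 against 10.9, at least 2.50-fold higher, and fipr-14 and fipr-25 were under both floors. All 4 called fipr genes were read by sets with that same code, so signal from close relatives cannot be told apart from their own. The class median of 0.00 hides 2 genes higher and 2 lower among 5.

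Thaumatin-like genes, encoded by the thn class and named after a plant defence protein family, were under both floors on the sets that read 1 gene. The genes thn-1, thn-3, thn-4 and thn-6 read between 0.389 and 21.1 over both arrays. The gene table lists thn-3 as a pseudogene.

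**Figure D3:**
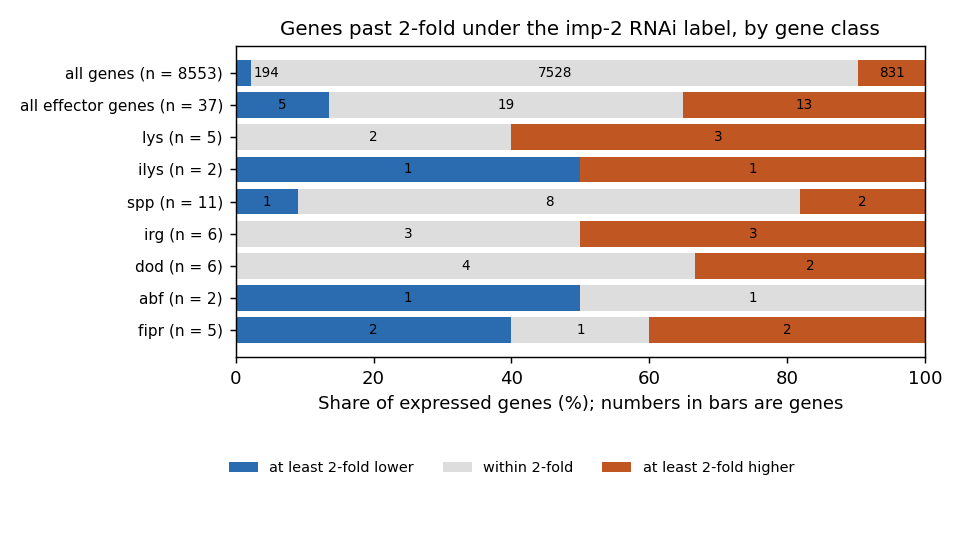
Share of expressed genes at least 2-fold lower (blue), within 2-fold (grey) and at least 2-fold higher (orange) on the imp-2-labelled array, for all expressed genes, all expressed effector genes and each class with an expressed gene; numbers in the bars count genes. The lys, irg and dod classes hold higher genes and no lower ones past 2-fold, while ilys, spp and fipr hold both and abf 1 lower gene.

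The classes were left out one at a time to see how far the counts rest on each. Without any 1 class that held expressed genes, between 10 and 13 genes remained at least 2-fold higher and between 3 and 5 lower. These counts are out of 26 to 35 expressed effector genes, beside 9.72% higher and 2.27% lower over all expressed genes. The median log2 ratio lay between 0.29 (without irg) and 0.77 (without spp). Class sizes of 2 to 11 expressed genes allow no ranking of the classes.

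Calls on these arrays were more frequent among dim genes, so the effector genes were also read by brightness. With the expressed genes in 3 equal bins of mean log2 intensity, 15.2%, 10.9% and 3.02% of all genes were at least 2-fold higher from the dimmest to the brightest bin. The effector genes gave 5 of 10, 4 of 13 and 4 of 14 in the same bins. In the brightest bin the 4 higher genes of 14 are 28.6%, beside 3.02% of all genes. Lower calls numbered 3, 1 and 1, beside 2.53%, 2.42% and 1.86% of all genes. The dimmest bin holds irg-2, spp-27 and fipr-24 among its higher genes and abf-1 among its lower ones. Each of these was under the floor on 1 array, so the counts of that bin rest in part on such genes.

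Probe sets that can match several transcripts measured 16 of the 37, and these held 8 higher and 3 lower genes with a median log2 ratio of 0.62. The other 21 held 5 higher and 2 lower genes with a median of 0.64. Over all expressed genes the shares past 2-fold higher were 8.17% with such sets and 10.7% without. The shares past 2-fold lower were 2.02% with them and 2.43% without. Calls in the lys, ilys, spp, irg, dod and fipr classes therefore rest in part on sets whose target is not certain.

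**Figure D4:**
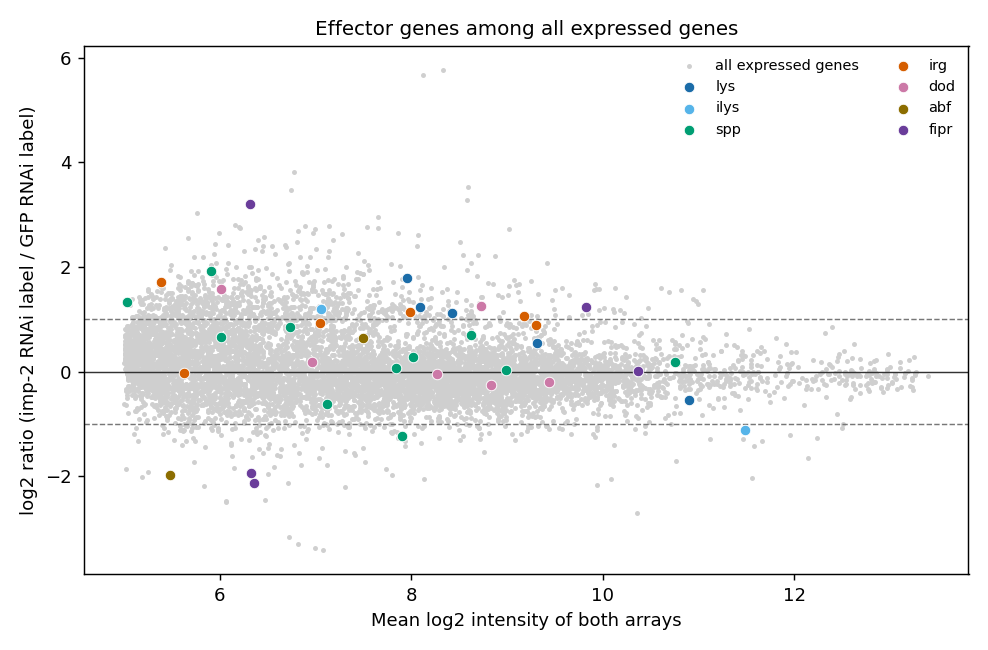
Log2 ratio (imp-2-labelled over GFP-labelled array) against mean log2 intensity of both arrays for the 8553 expressed genes (grey) and the 37 effector genes (coloured by class); dashed lines mark 2-fold. The grey cloud narrows toward bright genes, where lys-2, lys-8, irg-7, dod-19 and fipr-21 lie above the upper line and ilys-5 below the lower one.

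Several effector genes are direct neighbours in the genome, and the gene order was used to set them side by side. In the gene table of the WBcel235 assembly, 13 pairs had at most 2 protein-coding genes between them, and in 3 pairs both were expressed. The adjacent lysozyme genes lys-1 and lys-2 on chromosome V had log2 ratios of 0.55 and 1.24. On the same chromosome dod-19 lies next to irg-8, with 1.25 and 0.89. The saposin-like genes spp-10 and spp-8 on chromosome IV, with 1 gene between them, had 0.19 and 1.93. In the other 10 pairs at least 1 gene did not count as expressed, among them abf-2 and abf-1 on chromosome I, whose readings differed in opposite directions. Chromosome V holds 12 of the 37 expressed effector genes and 6 of the 18 past 2-fold, which are similar shares.

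Markers of the intestine, where many of these effectors are made, were read with the same rules. Of 12 marker genes 11 were expressed, of which 4 were at least 2-fold higher on the imp-2-labelled array, none was lower to that extent and 7 lay within 2-fold, beside 9.72% higher and 2.27% lower over all expressed genes. Their median log2 ratio was 0.70, with summed readings of 8096 against 6181. Such a sum follows its brightest genes: asp-1 alone read 4252 and 3790. The gut esterase gene ges-1 read 154 and 56.2, 2.72-fold higher. The intermediate filament gene ifb-2 was 2.15-fold higher, the cathepsin gene cpr-1 2.13-fold higher and the GATA factor gene elt-7 at least 2.24-fold higher. Of the 7 within 2-fold, the actin gene act-5 had a log2 ratio of 0.93, the peptide transporter gene pept-1 0.70 and the proton pump gene vha-6 0.39. Nearer to 0 were the aspartyl protease gene asp-1 (0.16), the exchanger gene nhx-2 (0.01), the metallothionein gene mtl-2 (0.00) and the acid phosphatase gene pho-1 (−0.18, with 0.55 on its other set). The main intestinal GATA factor gene elt-2 was under both floors, with 32.9 and 23.6. The part of the intestinal markers in the effector ratios was not tested.

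Among 6 expressed markers of the epidermis 2 were at least 2-fold higher (rol-6 and bli-1, both bounds), none was lower and 4 lay within 2-fold, with a median of 0.61 and summed readings of 4275 against 3263. Those 4 were col-12 (0.69), dpy-7 (0.54), col-19 (0.07) and lin-26 (−0.28, with −0.15 on its other set). The pharynx, a source of abf and lysozyme peptides, had a median of 0.03 over 7 expressed of 10 markers, with 1 lower (phat-3, 2.16-fold), sums of 1650 and 1759, and phat-1, phat-5 and ceh-22 under both floors. Germline markers had a median of −0.35 over 5 genes with none past 2-fold and sums of 6495 and 8381. Body wall muscle had 0.20 over 4 genes with none past 2-fold and sums of 7991 and 6893. Neuronal markers had −0.08 over 4 genes with 1 higher, the syntaxin gene unc-64 (2.16-fold), and sums of 1343 and 1213. Within 2-fold were unc-119 (−0.78), rab-3 (−0.32, with −0.64 on its other set) and snb-1 (0.16, with 0.38 on its other set). The brightest of these markers, snb-1, read 1027 and 915. The coelomocyte markers unc-122, cup-4 and lgc-26 were under both floors, without a usable ratio. For these lists too, a part in the effector ratios was not tested.

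Genes of the pathways that govern the effectors followed, and their counts stand beside the same shares over all expressed genes, 9.72% higher and 2.27% lower. In the PMK-1 cascade 7 of 9 listed genes could be read separately and all 7 were expressed, with 1 higher, 1 lower and a median of 0.19. The adaptor gene tir-1, at the head of the cascade, read 193 and 73.5, 2.61-fold higher, while its other probe set gave 0.79 on the log2 scale. The kinase kinase gene sek-1 had a log2 ratio of 0.60, with 0.42 on its other set. The phosphatase gene vhp-1, a negative regulator, had 0.49, with 0.18 on its other set. For pmk-1 itself the readings were near the floor, 27 (under it) on the imp-2-labelled array and 43.7 on the other. The transcription factor gene atf-7 read 478 and 971, 2.05-fold lower, but its other probe sets gave −0.28 and −0.29. The ratio of skn-1 was −0.54 (−0.60 and 0.08 on other sets) and that of the protein kinase C gene tpa-1 was 0.19. The message levels of the cascade thus went in no common direction.

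In the insulin pathway 8 of 9 genes were expressed, with 1 higher (12.5%), 1 lower (12.5%) and a median of 0.04. The transcription factor gene pqm-1, which opposes DAF-16, read 209 and 43.8, 4.75-fold higher. The kinase gene pdk-1 read 56.6 and 173, 3.08-fold lower, with −0.65 on its other set. The gene daf-16 itself had log2 ratios of −0.56, −0.66 and −0.63 on its 3 sets. For akt-2, 2 sets gave 0.58 and 1.05. Of 8 DAF-16 target genes outside the 8 classes 6 were expressed, 2 were higher and none lower, with a median of 0.28. These were the metallothionein gene mtl-1, with 162 against 28.6 (at least 5.35-fold), and the catalase gene ctl-2 (2.78-fold). The small heat shock gene hsp-12.6 read 72.7 against 11.18, at least 2.39-fold higher, but was too dim to count as expressed. Within 2-fold were sip-1, another small heat shock gene (log2 ratio 0.00), gpd-2 (−0.12), mtl-2 (0.00) and the superoxide dismutase gene sod-3 (0.56).

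Of 10 further intestinal regulators 8 were expressed, 3 were higher and none lower, with a median of 0.40. Besides elt-7 these were fshr-1, a receptor gene of the intestinal immune response (125 and 50.1, 2.48-fold), and the beta-catenin gene bar-1 (at least 2.41-fold). The transcription factor gene zip-2 had 0.54. For hlh-30 the sets differed in sign, with −0.49 and, on its other set, 0.1. In the DBL-1 arm 5 of 7 genes were expressed and all lay within 2-fold, with a median of 0.72, led by the Smad gene sma-4 (0.81). Infection response genes without one of the class names numbered 9, of which 5 were expressed, 1 was higher and none lower, with a median of 0.71. The higher one was catp-3, an ion pump gene (2.49-fold, with a log2 ratio of 1.64 on its other set). The PMK-1 reporter gene sysm-1 read 65.3 and 62.0, a log2 ratio of 0.06.

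**Figure D5:**
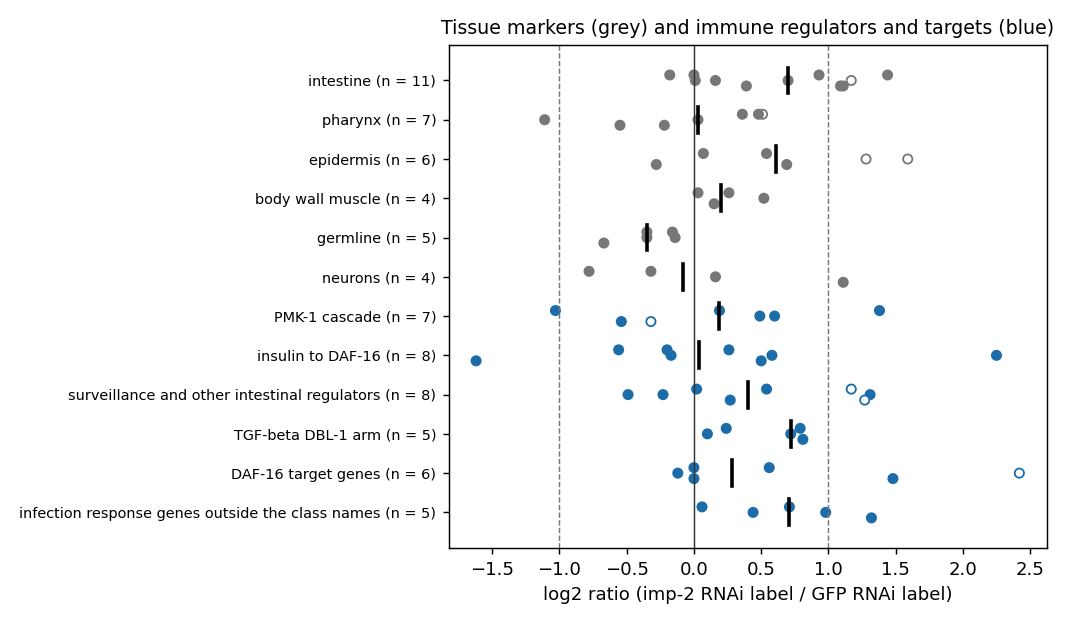
Log2 ratio (imp-2-labelled over GFP-labelled array) of each expressed gene in the tissue marker lists (grey) and in the lists of immune regulators and target genes (blue); open points had 1 array under its floor, black bars are list medians and dashed lines mark 2-fold. The medians of the intestine (0.70) and epidermis (0.61) markers lie above that of the germline markers (−0.35), although single genes overlap, and pqm-1 (2.25) and pdk-1 (−1.62) are the ends of the insulin list.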

How the data were processed

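RNA of whole nematodes was measured on 2 arrays, 1 per group, and each array's group follows from its description, which names the target of the double-stranded RNA. The values deposited by the authors are linear intensities, 1 per probe set, already summarised and scaled; the methods used for this are not stated in these sources. Detection calls and probe values were not used here, so the number of arrays limits the precision.

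Gene names come from the platform annotation: 20766 probe sets had 1 gene, 887 several and 895 none. All 68 members matched the gene table of WBcel235 by gene ID, and 0 symbols changed. No coordinates are printed because no source here names the build of the array. Intensities were converted to log2, floored at each array's median (the 50th percentile), and centred by 0.01; the probe set with the highest mean stood for a gene. A call means at least 2-fold.

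The members and lists were chosen with earlier results of these data known. Genes were named by this rule: every called member, every member of a class of at most 12 genes, the 3 brightest of each class, members with discordant probe sets, the PMK-1 cascade, and pathway genes past 2-fold. Other list genes were added as examples after their values were seen. The alternatives were other floors, scalings, centring, filters and probe set choices. The steps were tested on simulated data. Promoter motifs and protein sequences were not analysed here. Python 3.11.15, numpy 2.4.6, pandas 2.3.3 and statsmodels 0.14.6 were used.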

Additional observations from a re-analysis of the deposited data

How the results depend on the processing

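The median of the effector genes stayed above 0 under the 7 alternatives, and no ratio of a called gene reversed, but both counts fell under some of them. The 13 higher and 5 lower genes became 7 and 1 with the floor and the expression limit at the 75th percentile, where 22 effector genes were left, and 6 and 2 without probe sets that may match several transcripts, where 24 were left. The shares over all genes were then 4.51% and 0.929%, and 10.2% and 2.61%. Under those settings 31.8% and 25.0% of the expressed effector genes were higher, and 4.55% and 8.33% were lower. The median of 0.64 became 0.43 with the higher floor, 0.56 after quantile normalization and 0.22 with no filter on dim genes, which is the log2 ratio of the floors themselves. With no floor, with intensity-dependent centring, and with the mean of all probe sets, the counts stayed at 13 and 5 of 37. They were 12 and 5 of 36 after quantile normalization, beside 8.15% and 2.66% over all genes. With no filter on dim genes they were 15 and 5 of 68, beside 4.97% and 1.16% over all genes. Of the effector genes 22.1% were then higher and 7.35% lower, against 35.1% and 13.5% with the filter. Of 230 single values, 224 moved by no more than 0.37; the others were those of abf-1 (−3.24), fipr-24 (3.61), irg-2 (2.47) and spp-27 (2.44) with no floor, and dod-19 (0.75, within 2-fold) and spp-8 (1.27) without their multiply matching sets. The only called genes that fell within 2-fold where still measured were dod-19 there and spp-4 (−0.94) with the higher floor. The small class medians near 0 depend on the setting: that of dod was −0.03 with the higher floor and −0.05 without multiply matching sets. The higher floor left 1 abf and 1 ilys gene, so those class medians became 0.47 and −1.03. No paired analysis was possible because each group holds 1 array.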

Other observations

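Some probe sets of these classes are shared with another gene and so lay outside the selection. There were 14 such sets, of which 6 counted as expressed. Among their genes, lys-5, lys-6, fipr-16 and thn-1 also have a set of their own, described above. The set shared by dod-21 and cld-1 read 210 on the imp-2-labelled array and 30.6 on the GFP-labelled array, 6.82-fold higher, with the lower reading just above the floor. One set shared by fipr-22 and fipr-23 read 135 against 27.9, at least 4.45-fold higher, and their second set, too dim to count as expressed, was at least 2.68-fold higher. The set of fipr-16 and fip-3 read 25.8 against 78.6, at least 2.24-fold lower. The set annotated to fipr-16 alone was lower too. Both sets carry the code for probes that can match more than 1 transcript, so they are not independent readings.

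Sets of caenopore genes with known activity against bacteria were among the shared ones. The set shared by spp-5 and T08A9.13 read 3350 and 4013 (log2 ratio −0.27), and that of spp-2 and spp-3 read 1376 and 1763 (−0.37). Both lay within 1 probe set spread (0.37) of 0, on the side of the GFP label. The set shared by thn-1 and thn-2, with 171 against 95.3 (log2 ratio 0.83), was the only thaumatin-like set above the floors. In all, 8 of the 14 sets did not count as expressed.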
